A study of Mus musculus with 16 samples.

Results

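Endosialin (Cd248) was deleted in the host mice of these tumours, and the transcripts of tumour pericytes from knockout hosts were compared with those of tumour pericytes from wild-type hosts. The comparison takes the 4 arrays labelled as pericytes of Endosialin knockout tumours and the 4 labelled as pericytes of Endosialin wild type tumours, 8 of the 16 arrays of the series, and all 24040 probes by gene symbol. The other 8 arrays hold tumour endothelial cells, 4 from knockout and 4 from wild-type hosts. All hosts were female Balb/c UbGFP mice aged 6 to 8 weeks that carried 67NR cells, a mouse mammary carcinoma line, in a mammary fat pad, and tumours were taken after 2 to 4 weeks, at a mean diameter of 10 mm. Flow-sorted cells went uncultured into RNA extraction, the Ovation Pico WTA System V2 amplified the RNA, and each Illumina MouseWG-6 v2.0 bead array received 1.6 µg of cRNA. Not given in the sources used here are the kind of knockout allele, the gate markers of the sort, how many mice or tumours an array stands for, its chip and its scan date. Nothing states that replicates of a group came from separate animals, so every p-value measures only the spread between these samples.

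Pericytes are mural cells that wrap capillaries and small venules, share a basement membrane with the endothelium and are recruited by endothelial PDGF-B acting on PDGF receptor beta. Endosialin belongs to the thrombomodulin family of membrane glycoproteins with a C-type lectin domain and is carried by pericytes and stromal fibroblasts of tumours and little by resting adult vessels. It binds matrix proteins, and it has been studied as a marker and target of the tumour stroma.

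Values are the authors' normalized probe intensities on a log2 scale, so a difference of 1 is a doubling on that scale. Medians of the 8 pericyte arrays lay between 7.18 and 7.21 and the lowest value of the table was 6.58, so dim transcripts sit near the floor of the scale, where changes are understated. A gene was tested where 4 or more of the 16 arrays had its probe above their own median, which left 10426 genes. A gene passed the threshold at an adjusted p under 0.05 (limma, Benjamini-Hochberg over all 10426 genes, a model with 4 groups and 1 spread over all 16 arrays).

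The sort kept endothelial RNA low. The 17 tested endothelial markers averaged between 6.97 and 7.06 in knockout pericytes and between 6.93 and 7.15 in wild-type pericytes, against at least 9.50 in every endothelial array. The arrays called pericytes also held fibroblast transcripts at high levels: 24 tested fibroblast markers averaged 9.66 to 10.09 in knockout and 9.44 to 10.12 in wild-type pericytes, while 19 pericyte markers averaged 8.41 to 8.65 in knockout and 8.16 to 9.21 in wild-type pericytes. In bulk RNA, fewer cells of a type and less RNA per cell cannot be told apart.

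One array stood apart from its group. Knockout replicate 1 lay at -10.8 on the first principal component of the 8 pericyte arrays, which held 34.9% of their variance, while knockout replicates 2, 3 and 4 lay at 15.8, 13.6 and 12.0. The wild-type arrays lay at -11.9, -19.2, -2.42 and 2.84, so knockout replicate 1 fell among them. Across genes it correlated at 0.979 with wild-type replicate 1 and at 0.941 with knockout replicate 2. Its Cd248 signal was as low as in the other knockout arrays, and where leaving it out changed whether a named gene passed, the value without it is given too.

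Cd248 itself was low in every knockout array. Its brighter probe read 7.21, 7.10, 7.09 and 6.96 in the knockout pericyte arrays, against 11.19, 10.75, 10.85 and 11.12 in the wild-type pericyte arrays. All 4 knockout arrays lay near their array medians, far below every wild-type array, a difference of -3.89 ± 0.12 (SE, adjusted p = 4.2e-13). The other probe of the gene read 6.69 to 6.72 in knockout and 8.15 to 9.07 in wild-type pericytes. In endothelial cells the brighter probe averaged 7.27 in knockout and 7.04 in wild type. The knockout effect in pericytes minus that in endothelial cells was -4.12 (adjusted p = 6.11e-11).

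Beyond Cd248, 32 genes were higher in knockout pericytes and none but Cd248 was lower, which makes 0.307% and 0.00959% of the genes tested, or 0.317% in all. Of the 32 genes, 16 are on lists of epidermal genes, 5 are stefins and 11 are on neither kind of list. The most changed were the basal keratins Krt5 and Krt14, followed by the stefin Stfa1. Knockout replicates 2, 3 and 4 lay above every wild-type array in all 32 genes, and knockout replicate 1 did so in 16. Knockout replicate 1 was the lowest knockout array in 30 of the 32, and wild-type replicate 3 was the highest wild-type array in 26. Over all genes, the groups did not overlap in 3.01%, with 144 genes higher (1.38%) and 170 lower (1.63%), and at an unadjusted p under 0.05 there were 381 genes higher (3.65%) and 362 lower (3.47%), 7.13% in all. The median difference of all genes was -0.01.

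The filter on dim probes let in many of these genes through the knockout pericyte arrays themselves. Of the 32 higher genes, 21 had fewer than 4 of the other 12 arrays above their median, as had 577 of all 10426 genes, so these 21 were tested only because of their knockout pericyte values, and counts over them support no direction. The 11 others were Osbp, Sdc4, Tgfbi, Sfn, Fabp5, Tcfap2c, Gltp, A030007L17Rik, AW555464, C230053B09Rik and LOC245892. With no filter 14 genes passed in all.

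The count depends on the model and on single arrays. With knockout replicate 1 left out, 116 genes were higher and 14 lower, 1.11% and 0.134% of the genes tested, and these included all 33 genes of the full set. With the spread taken from the 8 pericyte arrays alone, limma called only Cd248, while 314 genes were higher and 272 lower at an unadjusted p under 0.05. Leaving out knockout replicate 2 or 3 left 3 and 2 higher genes.

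**Figure D1:**
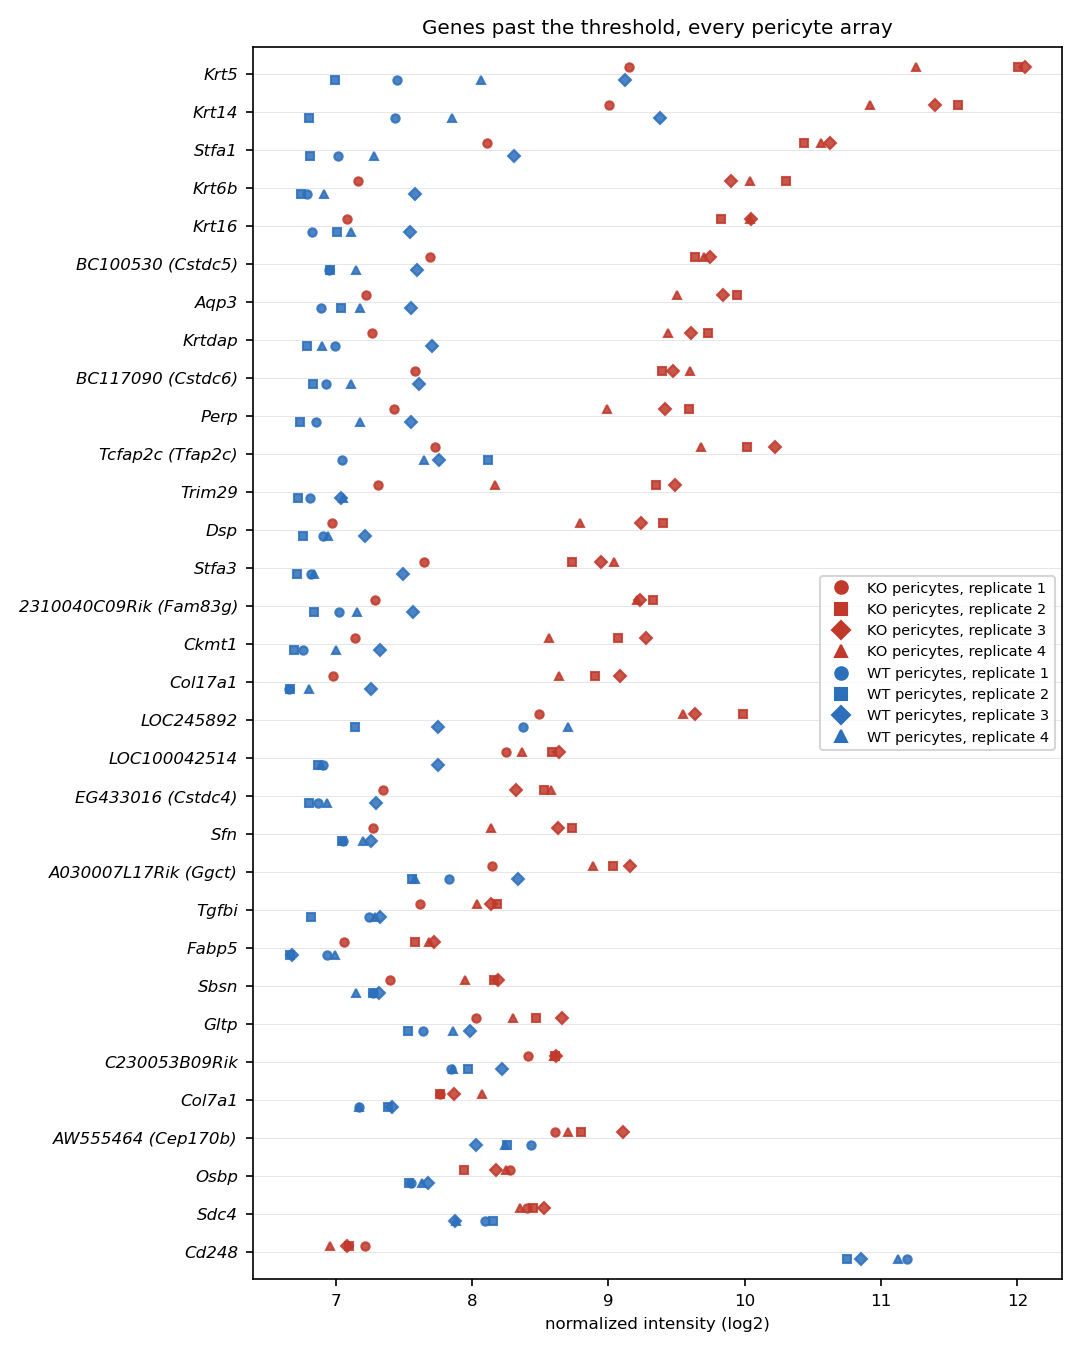
Normalized log2 intensity (x axis) of 32 of the 33 genes past the threshold, 1 row a gene from the largest positive difference at the top to Cd248 at the bottom, with the 4 knockout pericyte arrays in red above the 4 wild-type arrays in blue and 1 symbol a replicate. For Krt5 the knockout arrays sit between 9.15 and 12.06 and the wild-type arrays between 6.99 and 9.12, with knockout replicate 1 (circle) at the low end. For Osbp and Sdc4 replicate 1 is not the lowest knockout array.

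Keratins pair into the intermediate filaments of epithelia, and Krt5 with Krt14 forms those of the basal layer of stratified epithelium. Krt5 read 9.15, 12.00, 12.06 and 11.25 in knockout pericytes, against 7.45, 6.99, 9.12 and 8.07 in wild-type pericytes. All knockout arrays lay above all wild-type arrays, though knockout replicate 1 exceeded wild-type replicate 3 by little, and the difference was 3.21 ± 0.49 (SE, adjusted p = 0.00824). Without knockout replicate 1 it was 3.86. Its partner Krt14 read 9.01, 11.56, 11.39 and 10.92 in knockout pericytes, against 7.43, 6.80, 9.38 and 7.85 in wild-type pericytes, a difference of 2.85 ± 0.48 (SE, adjusted p = 0.0129). Here knockout replicate 1 lay below wild-type replicate 3.

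Krt6b and Krt16 are keratins of hair follicles and of wounded or hyperproliferative epidermis. Krt6b read 7.16, 10.30, 9.90 and 10.04 in knockout pericytes, against 6.79, 6.75, 7.58 and 6.92 in wild-type pericytes. Krt16 read 7.08, 9.82, 10.05 and 10.04 in knockout pericytes, against 6.83, 7.01, 7.54 and 7.11 in wild-type pericytes. The differences were 2.34 ± 0.45 (SE, adjusted p = 0.0306) and 2.13 ± 0.44 (SE, adjusted p = 0.043), and in both genes knockout replicate 1 lay within the wild-type range. Krt17 (1.89), which the same tissues carry, and Krt79 (1.11), a hair follicle keratin, did not pass, with adjusted p of 0.129 and 0.442. Without knockout replicate 1 both passed, Krt17 at 2.59 (adjusted p = 8.55e-07) and Krt79 at 1.54 (adjusted p = 0.0112).

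Other genes of the basal layer moved with the keratins. Of 14 tested basal keratinocyte genes 8 rose, and 11 did without knockout replicate 1. Of the 14, 7 had entered the test through the knockout pericyte arrays in the same way, 5 of them among the 8. Of the other 7 genes 3 rose, 6 had a difference above 0 and the median was 0.52, while 47.8% of all genes tested had a difference above 0. Aqp3, a water and glycerol channel of basal keratinocytes, differed by 1.96, the transcription factor gene Tcfap2c (now Tfap2c) by 1.77, and Trim29, a tripartite motif protein of basal epithelium, by 1.67. All 12 arrays other than those of knockout pericytes lay below their medians for Trim29, and with no filter its adjusted p was 0.0719. Sfn, the epithelial 14-3-3 protein, differed by 1.05, and Fabp5, the epidermal fatty acid binding protein, by 0.69. Trim29, Sfn and Fabp5 did not overlap between the groups. The growth factor receptor gene Egfr was the member below 0 (-0.13 ± 0.14, SE). The 14 genes averaged 7.82, 9.55, 9.48 and 9.10 in the knockout arrays, against 7.46, 7.46, 7.97 and 7.63 in the wild-type arrays.

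Cornified envelope genes gave a smaller count, which depended on knockout replicate 1. Of 9 tested suprabasal genes 2 rose, Krtdap and Sbsn, while 7 did without knockout replicate 1. Both had entered the test through the knockout pericyte arrays, as had 7 of the 9. Krtdap, a secreted peptide of differentiating keratinocytes, read 7.26, 9.73, 9.60 and 9.44 in knockout pericytes, against 6.99, 6.79, 7.70 and 6.90 in wild-type pericytes (difference 1.91, adjusted p = 0.0306). Sbsn (suprabasin) read 7.40, 8.16, 8.19 and 7.95 in knockout pericytes, against 7.28, 7.28, 7.32 and 7.15 in wild-type pericytes (difference 0.67, adjusted p = 0.0306). Knockout replicate 1 lay inside the wild-type range for Krtdap and just above it for Sbsn. Krt10, the main suprabasal keratin, differed by 0.68 and the envelope precursor Sprr1b by 1.38, with adjusted p of 0.148 and 0.0777. Without knockout replicate 1 both passed, Krt10 at 0.82 (adjusted p = 0.0159) and Sprr1b at 1.87 (adjusted p = 2.84e-08).

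Desmosomes bind epithelial cells to each other and hemidesmosomes bind them to the basement membrane. Of 10 tested genes of these junctions 4 rose, all 4 of them let in through the knockout pericyte arrays, and 7 rose without knockout replicate 1. Of the other 6 none passed, 5 lay above 0 and the median was 0.39. The desmosomal genes Perp and Dsp (desmoplakin) differed by 1.78 ± 0.31 and 1.64 ± 0.34 (SE), and Col17a1, the transmembrane collagen of hemidesmosomes, by 1.55 ± 0.30 (SE). Col7a1, the anchoring fibril collagen, read 7.76, 7.76, 7.87 and 8.07 in knockout pericytes, against 7.17, 7.38, 7.41 and 7.17 in wild-type pericytes (difference 0.58, adjusted p = 0.0297). Its groups did not overlap, and knockout replicate 1 was level with knockout replicate 2, while for Perp, Dsp and Col17a1 it stood below the other knockout arrays.

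Many epidermal genes were too dim to be tested, and these were looked at after their values had been seen. The 50 untested genes of the epidermal lists have 67 probes, of which 64 had their highest value among the pericyte arrays in knockout replicate 2, 3 or 4, 1 in knockout replicate 1 and 2 in a wild-type array. No share over all dim probes was computed to set beside this count. Some of these probes lay close to the floor in every pericyte array, such as that of Tgm1 at 6.90 to 7.10. There the highest array says little. Trp63, the p63 regulator of stratified epithelium, read 6.97, 8.11, 8.28 and 7.46 in knockout pericytes, against 6.78, 6.78, 6.92 and 6.83 in wild-type pericytes. The hair follicle and basal keratin Krt15 read 7.02, 7.79, 9.60 and 7.74 in knockout pericytes, against 6.84, 6.68, 7.13 and 6.80 in wild-type pericytes. With no filter on dim probes these genes had adjusted p of 0.0973 and 0.264.

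Some pigment cell genes, too dim to be tested, were high in 2 knockout arrays. Dct, an enzyme of melanin synthesis, read 6.98, 9.49, 8.86 and 7.29 in knockout pericytes, against 6.82, 7.07, 7.12 and 7.18 in wild-type pericytes. Si (the melanosome protein gene Pmel) read 7.06, 9.70, 9.02 and 7.10 in knockout pericytes, against 6.85, 6.92, 7.09 and 7.08 in wild-type pericytes. Tyrp1 and Mlana, also melanosomal, had the same high arrays, knockout replicates 2 and 3, at 8.42 and 8.10 for Tyrp1 and at 8.76 and 8.21 for Mlana. Their other pericyte arrays lay at or below 6.97. These 4 genes were chosen after their values were seen, and with no filter none had an adjusted p under 0.338. The list of skin gland and pigment cell genes had 3 tested members, which did not follow. Of these, 2 lay above 0 and 1 below, with 0 at an unadjusted p under 0.05.

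**Figure D2:**
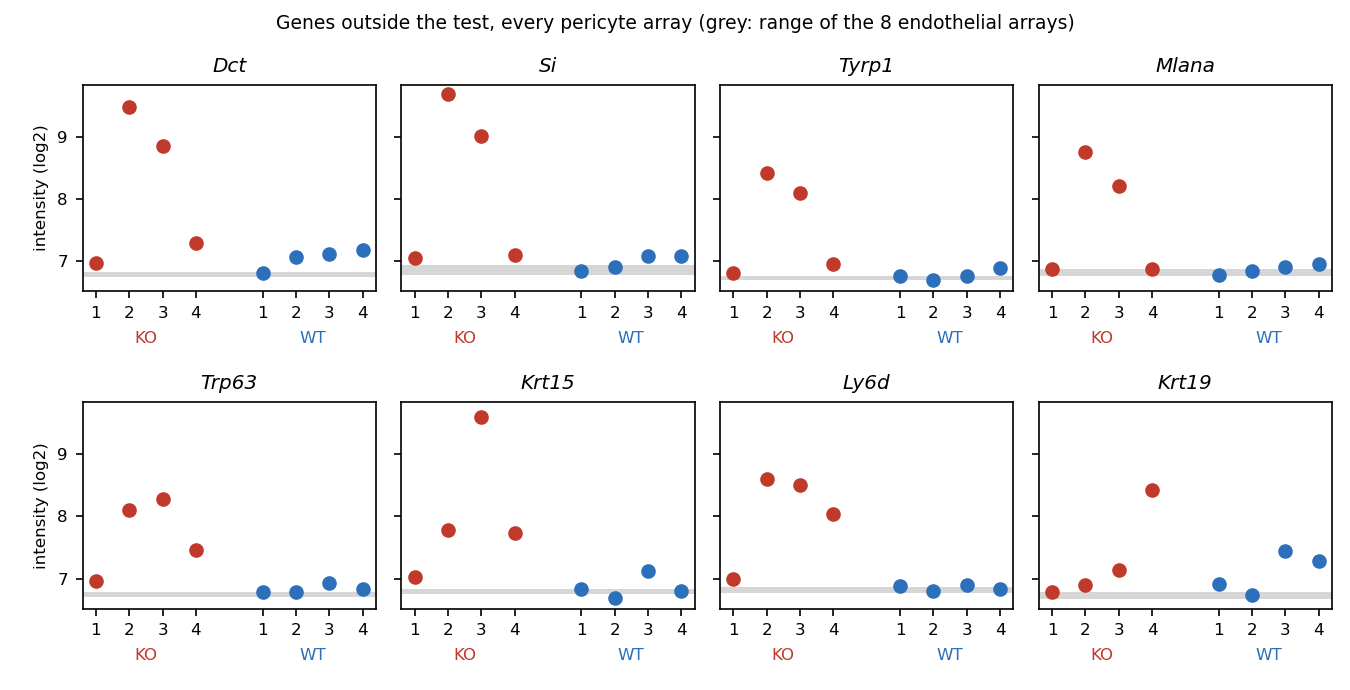
Normalized log2 intensity (y axis) of 8 genes too dim for the test in every knockout (red) and wild-type (blue) pericyte array, by replicate, with the range of the 8 endothelial arrays as a grey band. Dct, Si, Tyrp1 and Mlana are high in knockout replicates 2 and 3, Krt15 is highest in replicate 3 at 9.60, and Krt19 is highest in replicate 4 at 8.43.

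The simple epithelial keratins Krt8 and Krt18 had another pattern, which Cdh1 and the list of luminal genes did not share. The luminal keratins Krt8 and Krt18 read 6.88, 7.15, 7.35 and 8.56, and 6.78, 7.22, 7.39 and 8.98, in knockout pericytes, against 6.87 to 7.36 and 6.77 to 7.62 in wild-type pericytes. For these genes knockout replicate 4 alone lay above the wild-type arrays, and the differences of 0.38 and 0.38 did not pass (adjusted p = 0.811 and 0.879). The epithelial cadherin Cdh1 read 8.15, 10.62, 10.37 and 10.19 in knockout pericytes, against 7.29, 7.01, 8.99 and 8.70 in wild-type pericytes, a difference of 1.83 ± 0.50 (SE, adjusted p = 0.214). Cdh1 passed without knockout replicate 1 (2.40, adjusted p = 0.00363), with array weights (adjusted p = 0.0228) and with the replicate number as a block (adjusted p = 0.0457). Of 8 tested luminal epithelial and milk genes none passed, 7 lay above 0 and the median was 0.74. The list averaged 7.17, 8.35, 8.37 and 8.54 in knockout pericytes, against 7.04, 7.02, 7.64 and 7.49 in wild-type pericytes. Without knockout replicate 1, 5 of the 8 rose, against 1.11% of all genes tested. Of the 8, 6 had entered the test through the knockout pericyte arrays, so these counts support no direction. Whether epithelial cells in the sorted fraction, of tumour or of skin, had a part in these results was not tested. When the mean of the 14 basal keratinocyte genes was added to the model, limma called only Cd248 (159 genes higher and 124 lower at an unadjusted p under 0.05) and the Krt5 difference was 0.68, but this mean itself holds 8 of the genes that rose.

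The stefin A cluster of mouse chromosome 16 holds near-identical genes of cytosolic inhibitors of cysteine proteases such as cathepsins. Of 7 tested stefins and cystatins, 5 rose, and all 5 had entered the test through the knockout pericyte arrays. The 5 were Stfa1, BC100530 (now Cstdc5), BC117090 (now Cstdc6), Stfa3 and EG433016 (now Cstdc4). The promoters of 4 of them are in the RefSeq table of GRCm38.p6 and are shown because these copies moved together. Each is a window of 300 bases around the transcript start, 5′ to 3′ on the strand of its gene: Stfa1 at chr16:36276898-36277197 (+), Cstdc5 at chr16:36367521-36367820 (-), Stfa3 at chr16:36455343-36455642 (-) and Cstdc4 at chr16:36183962-36184261 (+). Capitals mark matches to GCCNNNGGC, a core bound by AP-2 factors, or to TGANTCA, a core bound by AP-1, searched on both strands, and no match overlapped another.
Stfa1: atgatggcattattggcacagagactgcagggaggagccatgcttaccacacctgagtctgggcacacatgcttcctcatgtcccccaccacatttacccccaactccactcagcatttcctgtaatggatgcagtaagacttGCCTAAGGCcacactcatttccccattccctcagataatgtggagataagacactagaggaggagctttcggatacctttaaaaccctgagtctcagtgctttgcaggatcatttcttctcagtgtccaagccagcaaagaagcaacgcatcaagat
Cstdc5: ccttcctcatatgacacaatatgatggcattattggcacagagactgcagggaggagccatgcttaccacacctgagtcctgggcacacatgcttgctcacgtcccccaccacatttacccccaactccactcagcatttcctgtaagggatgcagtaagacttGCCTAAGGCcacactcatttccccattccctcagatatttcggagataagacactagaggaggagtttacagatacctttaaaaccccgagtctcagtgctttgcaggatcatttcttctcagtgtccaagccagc
Stfa3: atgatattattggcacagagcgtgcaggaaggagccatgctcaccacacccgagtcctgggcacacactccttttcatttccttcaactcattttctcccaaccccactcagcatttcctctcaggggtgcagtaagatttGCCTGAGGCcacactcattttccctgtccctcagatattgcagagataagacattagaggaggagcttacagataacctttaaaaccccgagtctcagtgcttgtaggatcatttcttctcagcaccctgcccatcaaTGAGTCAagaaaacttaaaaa
Cstdc4: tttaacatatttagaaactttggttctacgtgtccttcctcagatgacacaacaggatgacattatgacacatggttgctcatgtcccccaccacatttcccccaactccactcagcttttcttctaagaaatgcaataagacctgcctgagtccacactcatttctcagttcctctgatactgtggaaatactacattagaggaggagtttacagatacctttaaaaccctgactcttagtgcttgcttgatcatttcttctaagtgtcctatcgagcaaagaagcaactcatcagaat

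The Stfa1 and Cstdc5 promoters were identical at 269 of 279 aligned bases (96.4%), and those of Stfa3 and Cstdc4 at 204 of 294 (69.4%). GCCNNNGGC stood in the promoters of Stfa1, Cstdc5 and Stfa3, and not in the Cstdc4 window, while 16.6% of all 32851 promoters of the table hold it. TGANTCA stood in that of Stfa3, and in 7.81% of all promoters. Of 21 genes past the threshold with a promoter in the table, 7 held the first motif and 3 the second. A match describes letters and is not a binding site.

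Stfa3 had the smallest adjusted p of the family. It read 7.65, 8.74, 8.95 and 9.04 in knockout pericytes, against 6.82, 6.72, 7.49 and 6.84 in wild-type pericytes, and all knockout arrays lay above all wild-type arrays (difference 1.62 ± 0.22, SE, adjusted p = 0.00375). Stfa1 read 8.11, 10.43, 10.62 and 10.56 in knockout pericytes, against 7.02, 6.81, 8.30 and 7.28 in wild-type pericytes, with knockout replicate 1 just below wild-type replicate 3 (difference 2.58 ± 0.41, SE, adjusted p = 0.00916). BC100530, BC117090 and EG433016 differed by 2.03, 1.89 and 1.22, with adjusted p of 0.00824, 0.00936 and 0.00824. In all 5 genes, knockout replicates 2, 3 and 4 lay close together and replicate 1 lay between them and most wild-type arrays. The copies are so alike that their probes may read each other's transcripts, so the 5 genes are not 5 separate measurements.

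The cystatins outside the cluster did not follow. Cstb (stefin B) read 10.16, 10.46, 10.48 and 10.36 in knockout pericytes, against 10.16, 10.49, 10.53 and 9.73 in wild-type pericytes, a difference of 0.14 with a 95% interval of -0.23 to 0.50. The secreted cystatin Cst3 differed by -0.07, with an interval of -0.34 to 0.20. The groups overlapped in both.

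Among the other 11 genes that rose, LOC100042514, a transcript that the RefSeq table does not name, had the smallest adjusted p. It had entered the test through the knockout pericyte arrays, where it was high, which limits both this rank and the comparison of cell types below. Its pericyte difference still passed in limma with no filter (adjusted p = 0.00117). It read 8.25, 8.59, 8.64 and 8.37 in knockout pericytes, against 6.91, 6.87, 7.75 and 6.90 in wild-type pericytes. Knockout replicate 1 was close to the other knockout arrays, wild-type replicate 3 stood above the other wild-type arrays, and the groups did not overlap (difference 1.36 ± 0.15, SE, adjusted p = 0.000272). It was also the one gene besides Cd248 whose knockout effect differed between the cell types, 2 genes or 0.0192% of those tested. Its difference was -0.02 in endothelial cells, and the pericyte effect exceeded it by 1.38 ± 0.21 (SE, adjusted p = 0.025). With no filter it no longer passed this test of the difference between cell types.

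Osbp, the oxysterol binding protein that exchanges cholesterol and phosphatidylinositol 4-phosphate between endoplasmic reticulum and Golgi, was higher in both cell types by its brighter probe. It read 8.28, 7.94, 8.17 and 8.25 in knockout pericytes, against 7.55, 7.54, 7.67 and 7.63 in wild-type pericytes, with no overlap and with knockout replicate 1 the highest (difference 0.56 ± 0.09, SE, adjusted p = 0.00824). In endothelial cells it read 8.28 to 8.41 in knockout and 7.48 to 7.70 in wild type (difference 0.71 ± 0.09, SE, adjusted p = 0.0019), and it was the only gene past the threshold there (0.00959%). The effects differed by -0.15 ± 0.12 (SE, adjusted p = 1). A dimmer probe of the gene, close to the floor, did not move with it: its values lay between 6.94 and 6.97 in knockout and between 6.95 and 6.99 in wild-type pericytes. In endothelial cells that probe went the other way without overlap, between 6.85 and 6.91 in knockout and between 6.95 and 7.06 in wild type.

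Osbp lies on chromosome 19 with Cd248. Of 27 tested genes listed as neighbours of Cd248 on that chromosome, Osbp rose, 20 had a difference above 0 and the median was 0.03. Only the chromosome of the listed genes was checked, not their distance from Cd248. Over all genes tested, 0.307% rose and 47.8% had a difference above 0. Of the 27, 4 were higher without overlap and 6 had an unadjusted p under 0.05, against 1.38% and 7.13% of all genes. The actin-severing protein gene Cfl1 read 7.98, 9.08, 8.40 and 8.36 in knockout pericytes, against 7.82, 7.69, 7.53 and 7.60 in wild-type pericytes. Its groups did not overlap, but the difference of 0.79 ± 0.23 (SE) had an adjusted p of 0.284.

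Genes of sterol transport and cholesterol synthesis lay on the same side as Osbp without passing the test. Of 22 tested, 1 rose, 20 lay above 0 and the median was 0.14, while 0.307% of all genes tested rose and 47.8% lay above 0. Leaving Osbp out, the list averaged 8.11, 8.11, 8.29 and 8.26 in the knockout arrays, against 7.96, 8.06, 8.05 and 8.02 in the wild-type arrays. The groups did not overlap and knockout replicate 1 lay with its group, but no background was computed for list means. The following 4 enzymes were picked after their values were seen, and none passed. Sqle, squalene epoxidase, differed by 0.51 (adjusted p = 0.294), and Fdps, which makes farnesyl pyrophosphate, by 0.38 (adjusted p = 0.3). Lss (0.31), which forms lanosterol, and Cyp51 (0.38), which demethylates it, had adjusted p of 0.375 and 0.305. With the kept probes of a gene averaged, Sqle differed by 0.34, Fdps by 0.265 and Lss by 0.17, while Cyp51 stayed at 0.38.

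**Figure D3:**
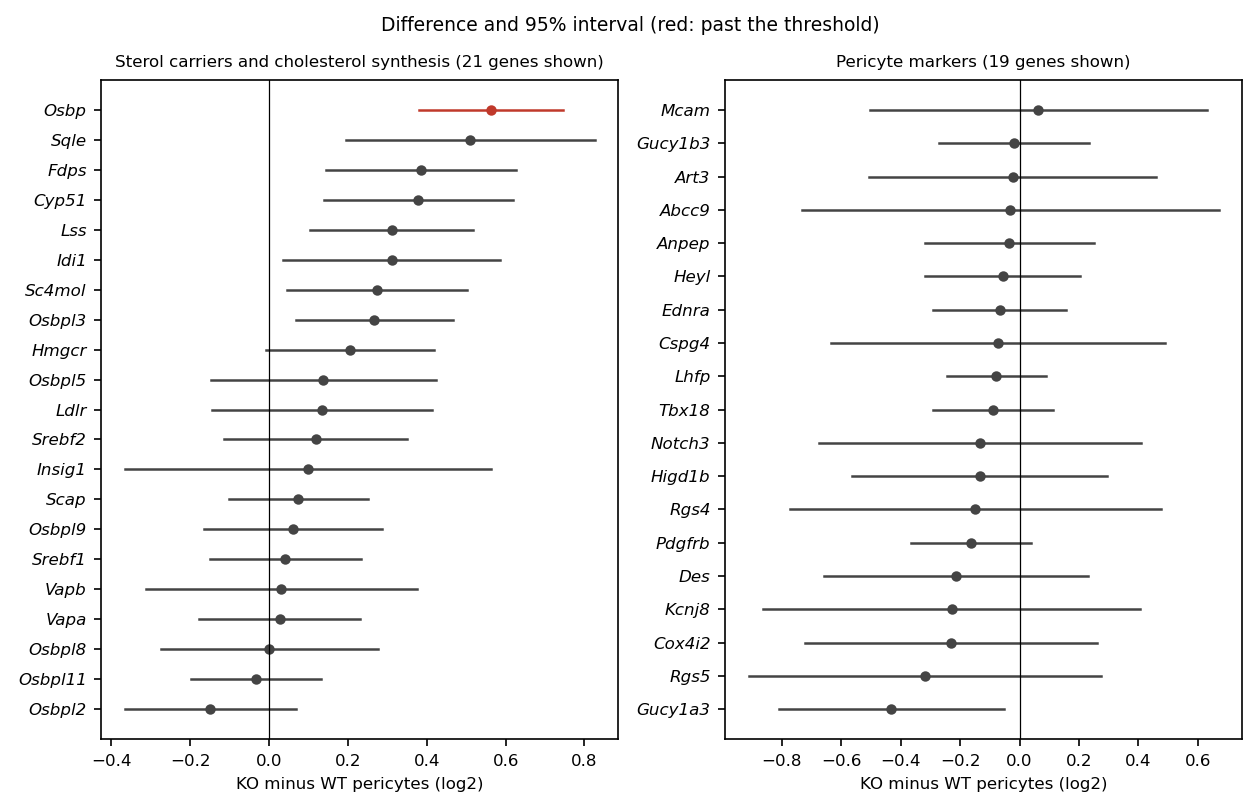
Difference of knockout minus wild-type pericytes (log2, x axis) with its 95% interval for 21 of the 22 tested sterol genes (left) and 19 pericyte markers (right), sorted by size, with the gene past the threshold in red. Osbp at 0.56 is past the threshold, 19 of the 21 sterol genes shown lie above 0, and 18 of the 19 pericyte markers lie below 0 with intervals that, except for Gucy1a3, include 0.

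Sdc4 and Tgfbi take part in cell adhesion to matrix. Sdc4, the heparan sulfate proteoglycan syndecan 4, read 8.40, 8.45, 8.53 and 8.35 in knockout pericytes, against 8.10, 8.16, 7.87 and 7.88 in wild-type pericytes (difference 0.43 ± 0.08, SE, adjusted p = 0.0297). Tgfbi, whose matrix protein is inducible by TGF-beta, read 7.62, 8.19, 8.14 and 8.03 in knockout pericytes, against 7.24, 6.82, 7.33 and 7.29 in wild-type pericytes (difference 0.83 ± 0.14, SE, adjusted p = 0.014). Neither overlapped between the groups, and knockout replicate 1 was the lowest knockout array for Tgfbi but not for Sdc4. Of the 21 tested genes on the matrix glycoprotein list, which holds Tgfbi but not Sdc4, only Tgfbi passed, and 14 of these 21 lay below 0.

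The remaining genes carry varied roles. Gltp, a glycolipid transfer protein, differed by 0.61, Ckmt1, a mitochondrial creatine kinase, by 1.57, and A030007L17Rik (now Ggct, an enzyme of glutathione breakdown) by 0.98. AW555464 (now Cep170b) differed by 0.57 and 2310040C09Rik (now Fam83g) by 1.62. Both Ckmt1 and 2310040C09Rik had entered the test through the knockout pericyte arrays. A probe left out by the filter differed by 0.06 for Ckmt1 and by 0.06 for A030007L17Rik, while a further kept probe of A030007L17Rik differed by 0.83. C230053B09Rik read 8.41, 8.61, 8.62 and 8.60 in knockout pericytes, against 7.85, 7.97, 8.22 and 7.86 in wild-type pericytes, with no overlap. LOC245892 differed by 1.42 with overlapping groups, and the RefSeq table names neither of these last 2 transcripts.

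In endothelial cells the 31 genes other than Osbp that rose in pericytes had knockout differences of at most 0.14 in size. Of the 32, the interaction passed for LOC100042514 alone, and the lowest adjusted p of the others was 0.324. Whether those effects differ between the cell types was therefore not shown.

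Below the threshold, 9 genes came nearest to Cd248 among those lower in knockout pericytes, picked by their small p. In 8 of them the groups did not overlap, against 1.63% of all genes tested. Picking by p favours genes without overlap, so this count is no support for them. Sh2b3, an adaptor that restrains cytokine receptor signalling, read 7.13, 7.19, 7.24 and 7.34 in knockout pericytes, against 7.45, 7.89, 7.49 and 7.69 in wild-type pericytes (difference -0.40 ± 0.09, SE, adjusted p = 0.0962). Enpep, the aminopeptidase A of pericytes and kidney that cleaves angiotensin II, read 8.02, 7.82, 7.74 and 7.98 in knockout pericytes, against 8.35, 8.15, 8.33 and 8.15 in wild-type pericytes (difference -0.35 ± 0.08, SE, adjusted p = 0.0983). All knockout arrays of both genes lay below all wild-type arrays, knockout replicate 1 included.

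The others were Ank2, an ankyrin (-0.33), Myef2 (-0.35), Chst1, a keratan sulfate sulfotransferase (-0.56), Rnf14 (-0.41), Myst3 (now Kat6a, a histone acetyltransferase, -0.44), AK157302 (-0.43) and Il11, a cytokine of the interleukin 6 family (-0.44), with adjusted p between 0.0998 and 0.14. Without knockout replicate 1, Enpep (-0.40), Chst1 (-0.66) and Rnf14 (-0.47) passed the threshold, and 10 further genes besides Cd248 did.

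Pericyte identity genes did not pass the test. Of 19 tested, 18 had a difference below 0 and the median was -0.09, with 1 at an unadjusted p under 0.05. Over all genes tested, 47.8% had a difference above 0 and 7.13% had an unadjusted p under 0.05. The list averaged 8.42, 8.60, 8.41 and 8.65 in knockout pericytes, against 8.91, 8.16, 8.30 and 9.21 in wild-type pericytes. Whole-list shifts between arrays mean that the 18 are not separate measurements. Rgs5, a regulator of G protein signalling that marks pericytes, read 11.20, 11.52, 11.29 and 11.30 in knockout pericytes, against 11.81, 11.32, 11.03 and 12.43 in wild-type pericytes. The PDGF receptor gene Pdgfrb read 7.79, 7.94, 7.95 and 8.14 in knockout pericytes, against 8.03, 7.92, 8.11 and 8.40 in wild-type pericytes. Both overlapped, with differences of -0.32 (95% interval -0.91 to 0.27) and -0.16 (-0.36 to 0.04).

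The wild-type arrays ranged more widely than the knockout arrays in several of these genes. Cspg4 (the NG2 proteoglycan) read 8.30, 8.58, 8.35 and 8.56 in knockout pericytes, against 8.86, 7.73, 7.91 and 9.58 in wild-type pericytes. Notch3, the Notch receptor of mural cells, read 8.27, 8.42, 8.27 and 8.20 in knockout pericytes, against 9.02, 7.65, 7.74 and 9.27 in wild-type pericytes. Wild-type replicates 1 and 4 were high and replicates 2 and 3 low in both, with the knockout arrays between them, so the differences of -0.07 ± 0.27 and -0.13 ± 0.26 (SE) say little. Gucy1a3, a subunit of the nitric oxide receptor, had the lowest difference of the list (-0.43 ± 0.18, SE, adjusted p = 0.628).

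Contractile genes were near 0 as a group, while most collagen and matrix glycoprotein genes lay below 0 by small amounts. The 15 tested smooth muscle genes had a median of 0.04, and Acta2 (smooth muscle actin) and Myh11 (smooth muscle myosin) differed by 0.05 ± 0.24 and 0.11 ± 0.16 (SE). The Acta2 difference was -0.10 when probes of a gene were averaged. Of 19 collagen genes, 16 lay below 0 and none of these passed, with Col7a1 the one that rose. The collagen median was -0.117 and that of the 21 matrix glycoprotein genes -0.093, both below the lower quartile of all genes tested, -0.088. Col5a2 had the lowest difference (-0.28 ± 0.12, SE, adjusted p = 0.633), and the abundant Col3a1 read 12.11, 11.78, 11.77 and 11.83 in knockout pericytes, against 12.25, 12.15, 12.17 and 11.52 in wild-type pericytes.

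Genes of proteins known to bind endosialin or its relatives did not pass the test. Of 8 tested genes beside Cd248 in this list, all 8 had a difference below 0, and none passed. Over all genes tested, 47.8% had a difference above 0. Lgals3bp, a secreted galectin-binding glycoprotein that binds endosialin, read 8.36, 8.15, 8.29 and 7.99 in knockout pericytes, against 8.89, 8.44, 8.48 and 8.37 in wild-type pericytes (difference -0.34 ± 0.13, SE, adjusted p = 0.591). Its groups did not overlap, and 1.63% of all genes tested were lower without overlap. The basement membrane collagen Col4a1 read 10.73 to 10.87 in knockout and 10.92 to 11.09 in wild-type pericytes (difference -0.19, adjusted p = 0.648), and fibronectin (Fn1) differed by -0.16 ± 0.27 (SE).

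**Figure D4:**
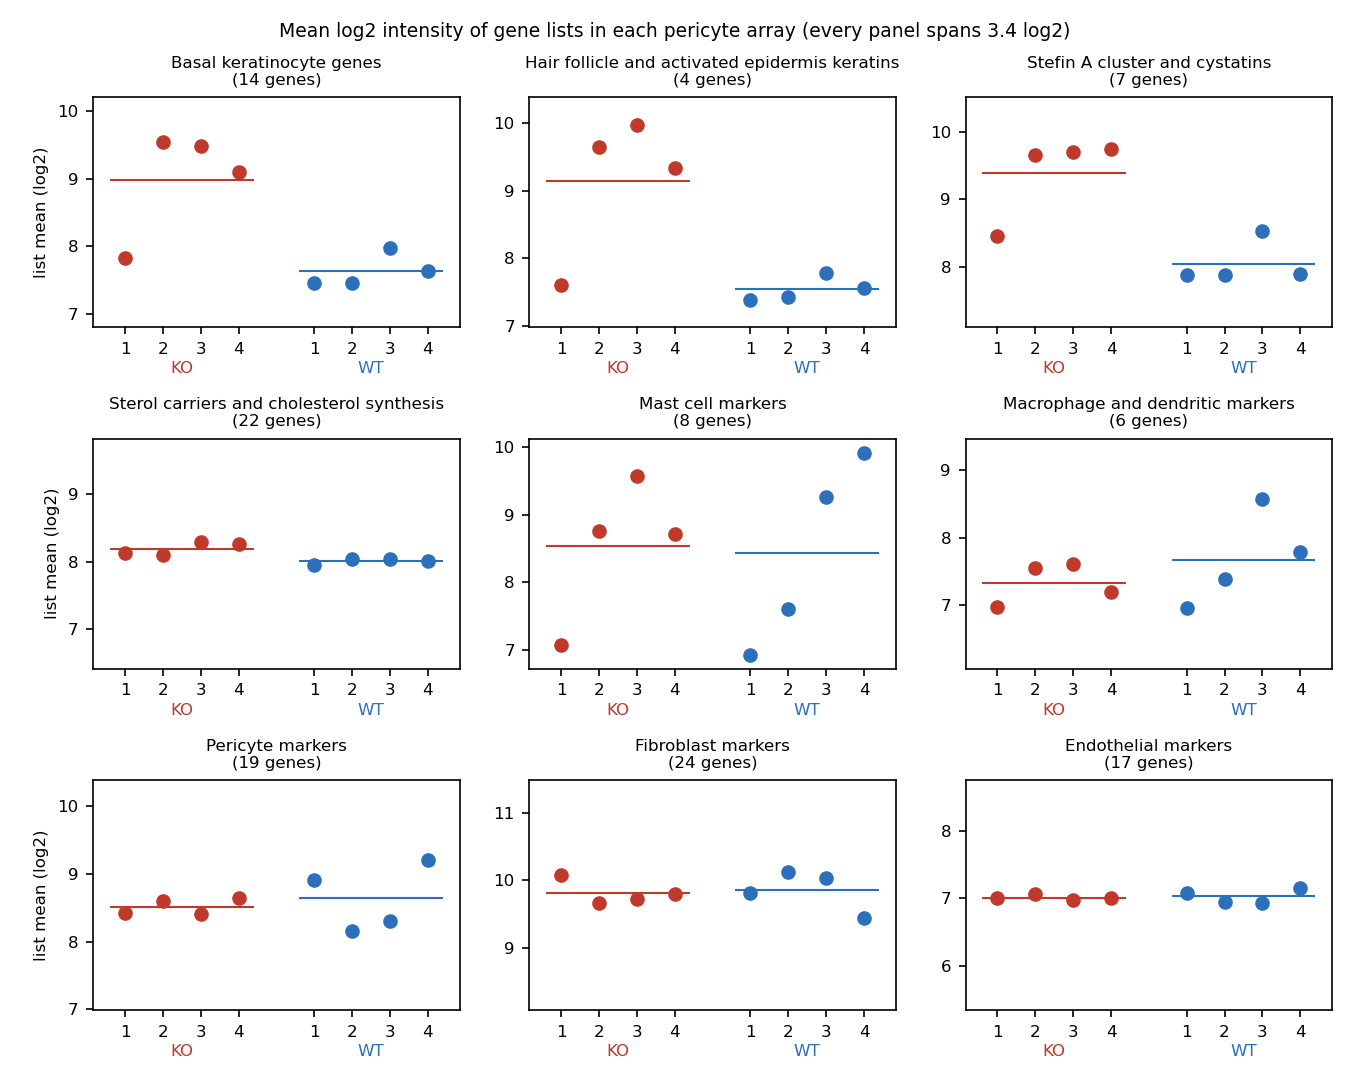
Mean log2 intensity (y axis, each panel spanning the same range) of the tested genes of 9 lists in the 4 knockout (red) and 4 wild-type (blue) pericyte arrays, by replicate, with the group means as lines. Keratinocyte, keratin and stefin lists are high in knockout replicates 2, 3 and 4 and lower in replicate 1, mast cell markers range from 7.08 to 9.57 in knockout and from 6.93 to 9.92 in wild-type arrays, and endothelial markers stay near 7.

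Blood cell transcripts varied between arrays of both genotypes. The 8 tested mast cell genes averaged 7.08, 8.76, 9.57 and 8.72 in knockout pericytes, against 6.93, 7.61, 9.26 and 9.92 in wild-type pericytes, so replicate 1 was low in each genotype. Tpsab1, the mast cell tryptase, ranged from 7.67 to 11.14 in knockout and from 6.80 to 11.31 in wild-type pericytes. The 6 macrophage and dendritic genes averaged 6.98 to 7.61 in knockout and 6.96 to 8.57 in wild-type pericytes, and Cd74, the MHC class II invariant chain, read 9.03 in wild-type replicate 3 and at most 7.36 in every other pericyte array. S100a9, a calcium-binding protein of neutrophils and stressed keratinocytes, read 6.75, 9.10, 8.88 and 9.65 in knockout pericytes, against 6.75, 7.05, 7.29 and 7.14 in wild-type pericytes (difference 1.54, adjusted p = 0.139). Without knockout replicate 1 it passed, at 2.15 (adjusted p = 4.63e-08). Their part in the other differences was not tested.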

How the data were processed

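Values are log2 probe intensities, already normalized when deposited. The submitters' processing notes name GenomeStudio and lumi as tools. No source used here gives tool versions, background correction, the exact transform, how arrays were normalized or whether probes were filtered. Nothing was changed in the deposited log2 values, and detection p-values were not used. Arrays were grouped by the labels, 4 a group. A probe was kept when above its array's median on at least 4 of 16 arrays (14632 of 24040 probes), and a gene with several kept probes was read from the one with the highest mean over all arrays. A group-means model was fitted to 16 arrays with limma 3.58.1 in R 4.3.3 (12 residual and 5.58 prior degrees of freedom), with two-sided moderated tests, Benjamini-Hochberg adjustment over 10426 genes and a threshold of 0.05. The code was tested on simulated data. The number of arrays limits the precision. Symbols are those of the array, updated through the RefSeq table of GRCm38.p6, where 1728 genes did not match.

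The members and gene lists were chosen with earlier results of these data known. The text names Cd248, every gene past the threshold, the 10 genes with the smallest p in each direction, and from each list used the first 6 tested members and the members with the highest and lowest difference, and it says where others were picked. Single-gene results for a few genes that the rule takes are not reported here. Alternatives changed the filter, the probe rule, the samples, the replicate block, the variance model, array weights, normalization and a keratinocyte covariate, and left out each array in turn. Testing every kept probe was added after seeing the data.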

Additional observations from a re-analysis of the deposited data

Results flagged for a closer look

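Among the 71 genes examined, 142 groups of 4 arrays were screened for an array whose gap to its nearest neighbour, as a share of the range of its group, passed Dixon's 95% critical value, and 18 groups had one, where chance gives about 1 group in 20 and the genes are not independent. Knockout replicate 1 lay below the other knockout arrays in 10 of the 18, with gap shares of 0.871 for Krt6b, 0.925 for Krt16, 0.881 for Krtdap, 0.844 for Sprr1b, 0.838 for Aqp3, 0.925 for Stfa1, 0.947 for BC100530, 0.898 for BC117090, 0.943 for 2310040C09Rik and 0.926 for C230053B09Rik. The same array lay above the other knockout arrays for Cst3 (0.890) and Col5a2 (0.878). Wild-type replicate 3 lay above the other wild-type arrays for LOC100042514 (0.957), Sprr1b (0.923), Cd74 (0.858) and Stfa3 (0.838). Wild-type replicate 2 was apart for Tgfbi (0.833) and wild-type replicate 4 for Col3a1 (0.865), both on the low side.

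In 2 genes the knockout effect in pericytes differed from that in endothelial cells by the interaction test, Cd248 by -4.12 and LOC100042514 by 1.38. LOC100042514 was no longer past the threshold of that test with no filter, under the keratinocyte covariate, or when most single arrays were left out.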

How the results depend on the processing

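The number of genes past the threshold in knockout against wild-type pericytes, 33 as reported, was 14 with no filter, 7 with the stricter filter (5889 genes tested), 1 with the 8 pericyte arrays alone, 16 with a trended and robust variance, 96 with array weights and 1 with the basal keratinocyte mean as a covariate. It was 28 with probes averaged, 31 after quantile normalization and 36 probes when every kept probe was tested. Leaving out 1 array gave 3 to 130 genes, 130 without knockout pericyte replicate 1 and 4, 3 and 17 without knockout replicates 2, 3 and 4. Of the wild-type pericyte arrays, replicates 1, 2 and 4 left 13, 8 and 12 genes when omitted. Of the endothelial arrays, knockout replicates 1, 3 and 4 left 12, 15 and 15, and wild-type replicate 4 left 15. With the replicate number as a block 40 genes passed, of which 32 were among the 33, and the differences of effects stayed at 2. In their deviations from the group means, same-numbered knockout and wild-type pericyte arrays correlated at 0.448, -0.08, -0.033 and 0.021. Same-numbered pericyte and endothelial arrays correlated at 0.224, 0.193, 0.174 and 0.032 in knockout and at 0.433, 0.121, 0.09 and 0.035 in wild type. These values do not settle whether the numbers pair samples, and the main model treated all 16 arrays as independent. The count of genes whose effect differs between cell types, 2 as reported, was 1 with no filter, 10 with array weights, 1 with the covariate, and 1 to 53 when 1 array was left out, with 53 without knockout pericyte replicate 1. Cd248 passed under every alternative, with differences from -3.99 to -2.86. With the covariate, the mean of 14 basal keratinocyte genes, the sign turned for Krt17 (-0.63), Krt6b (-0.046), Krt16 (-0.16), Krt79 (-0.51), Krtdap (-0.056), Sprr1b (-0.23), Sfn (-0.013), Tcfap2c (-0.041), Aqp3 (-0.14), Dsp (-0.16), Col17a1 (-0.059), Cstb (-0.14), Cst3 (0.045), Ckmt1 (-0.042), 2310040C09Rik (-0.0089), Cdh1 (-0.36), Krt8 (-0.086), Krt18 (-0.32), Col3a1 (0.079), Col5a2 (0.035), Tpsab1 (-2.55) and S100a9 (-0.28). Array weights turned Acta2 (-0.25) and Myh11 (-0.079), and averaged probes turned Acta2 (-0.10) and Egfr (0.067). Leaving out 1 array gave ranges that cross 0 for Cstb (-0.028 to 0.24), Cst3 (-0.15 to 0.055), Krt18 (-0.086 to 0.65), Cspg4 (-0.34 to 0.28), Notch3 (-0.39 to 0.15), Acta2 (-0.27 to 0.26), Myh11 (-0.056 to 0.29), Tpsab1 (-0.45 to 1.21) and Egfr (-0.29 to 0.032). Of the other values of named genes, 1303 kept their direction and their side of the threshold, 357 no longer passed it and 23 newly passed it. Except where fewer arrays or other genes entered by construction, the cause was not tested.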

Other observations

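Several further lists held no gene past the threshold in limma. Over all genes tested, 47.8% lay above 0 and 7.13% had an unadjusted p under 0.05. Of 18 tested interferon response genes, 16 had a difference below 0, with a median of -0.10 and 2 at an unadjusted p under 0.05. Of 16 immediate early genes, 13 lay above 0 (median 0.11, 1 at an unadjusted p under 0.05). Of 19 genes of VEGF and other angiogenic factors, 12 lay below 0 (median -0.05, 3 at an unadjusted p under 0.05). Notch (10 tested), Wnt (13 tested), cell cycle (18 tested) and cytosolic ribosomal protein genes (20 tested) had medians of 0.01, 0.05, 0.04 and 0.01, with 0, 3, 1 and 1 at an unadjusted p under 0.05.

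Without knockout replicate 1, 28 of the 116 higher genes were on epidermal lists, while 1.11% of all genes tested were higher. The array left out was the low knockout array for most of the genes that rose. Many list members had entered the test through the knockout pericyte arrays: 7 of 14 basal, 7 of 9 suprabasal, 3 of 4 hair follicle and 4 of 10 junction genes. The count of 28 therefore supports no direction. The lower genes then included 2 collagen-modifying enzymes, P4ha2, a prolyl hydroxylase subunit (-0.59, adjusted p = 0.01425), and Plod3, a lysyl hydroxylase (-0.66, adjusted p = 0.01587), and the homeobox gene Hoxc6 (-0.50, adjusted p = 0.003056). These 3 genes were picked after their values were seen.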
